A study of Rattus norvegicus with 82 samples.

Results

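Heart RNA was compared between rats that had received vincristine at 1 mg/kg and rats that had received saline, 24 h after dosing. The comparison was chosen by the sample labels alone: 6 arrays labelled vincristine 1 mg/kg at 24 h and 6 arrays labelled saline at 24 h, 12 of the 82 arrays of the study. All animals were male Wistar rats of the Crl:Wi(Han) stock, given 1 intravenous injection. Vincristine was dissolved in 0.9% saline, and the controls received 0.9% saline without a drug. Each array held the RNA of 1 animal, hybridised as biotinylated cRNA to an Affymetrix rat expression array. Age, the chamber of the heart that was sampled and the feeding state of the animals were not given in the sources used here. Further groups served for reference: vincristine at 0.1 mg/kg at 24 h (5 animals), vincristine at 1 mg/kg at 6 h (6 animals), saline at 6 h (6 animals), and vinblastine at 3 mg/kg and colchicine at 2 mg/kg at 24 h (6 animals each). The study title names cardiotoxicity of drugs that bind tubulin as its subject, and the comparison asks which heart transcripts differ at the later of its 2 times.

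Vincristine is a vinca alkaloid used against leukaemias and lymphomas. It binds the tubulin dimer and makes microtubules fall apart, which arrests dividing cells in mitosis. Heart muscle cells hardly divide, but their microtubules carry mRNA, vesicles and ion channels, position mitochondria and add to the stiffness of the cell. Cells also sense the free tubulin dimer: when it rises, the mRNAs of alpha and beta tubulin are degraded on the ribosome, with TTC5 as the factor that recognises the nascent chain. In whole animals a cytotoxic drug given into the vein also acts on bone marrow, gut, liver and vessel walls, so that circulating hormones, cytokines and food intake can differ between the groups.

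The values are deposited intensities, on a linear scale, that the authors had normalized between arrays. Changes below are differences of log2(intensity + 16) between group means, written as log2 changes with the standard error (SE) of the model. A change of 1 is then a doubling for a bright gene and understates the change of a dim one. Values are given over the 6 animals of each group as the lowest and highest intensity with the median. The test was limma with Benjamini-Hochberg adjustment over 11319 genes, and "rose" and "fell" are used only for an adjusted p under 0.05. Intensities of different genes cannot be set against each other, because each probe set has its own brightness.

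The 12 arrays had median intensities between 59.99 and 62.38. All 6 vincristine arrays lay nearer to their own group than to any other group of the study, at 0.678 to 0.800 of the distance to the next group, whereas saline arrays lay at 0.885 to 1.19. Of the 10 arrays in the study whose own group was more than 1.3 times as far as another group, 0 were among the 12. Among the 10 were 3 reference arrays: vincristine 0.1 mg/kg at 24 h, replicate 5, vincristine 1 mg/kg at 6 h, replicate 3, and colchicine 2 mg/kg at 24 h, replicate 1, whose own group was 3.22 times as far as another. In the comparison itself, saline replicate 6 differed from the other saline animals in several genes, which are named where they occur or among the flagged results. The labelled tissue was checked against markers of heart muscle. Of 11 cardiomyocyte markers tested, 0 rose and 2 fell (Myh6 at -0.24 and Nkx2-5 at -0.38 on the log2 scale), and their summed intensity was 166289 to 183262 with vincristine and 172922 to 204020 with saline (2 rose and 1 fell after quantile normalization). In RNA from whole tissue, fewer cells of a type and less RNA per cell cannot be told apart.

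Of 11319 genes, 3433 (30.3%) passed the threshold: 1353 (12%) were higher and 2080 (18.4%) were lower with vincristine, and 4506 had an unadjusted p under 0.05. The median log2 change over all genes was -0.01. Among the genes that passed, 243 changed at least 2-fold, 135 upward and 108 downward. For 2278 genes (20.1%) the 2 groups did not overlap at all, with every vincristine animal above every saline animal for 942 (8.32%) and below for 1336 (11.8%). The balance of directions depended on the scaling: 39.4% of the called genes were higher and 60.6% lower in the deposited values, against 50.1% and 49.9% after quantile normalization. The deposited values are used throughout, and the split after quantile normalization is given for some of the groups of genes in which it moved. Counts of other groups moved with the scaling as well. For any group of genes below, the share over all genes was 12% that rose and 18.4% that fell.

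**Figure D1:**
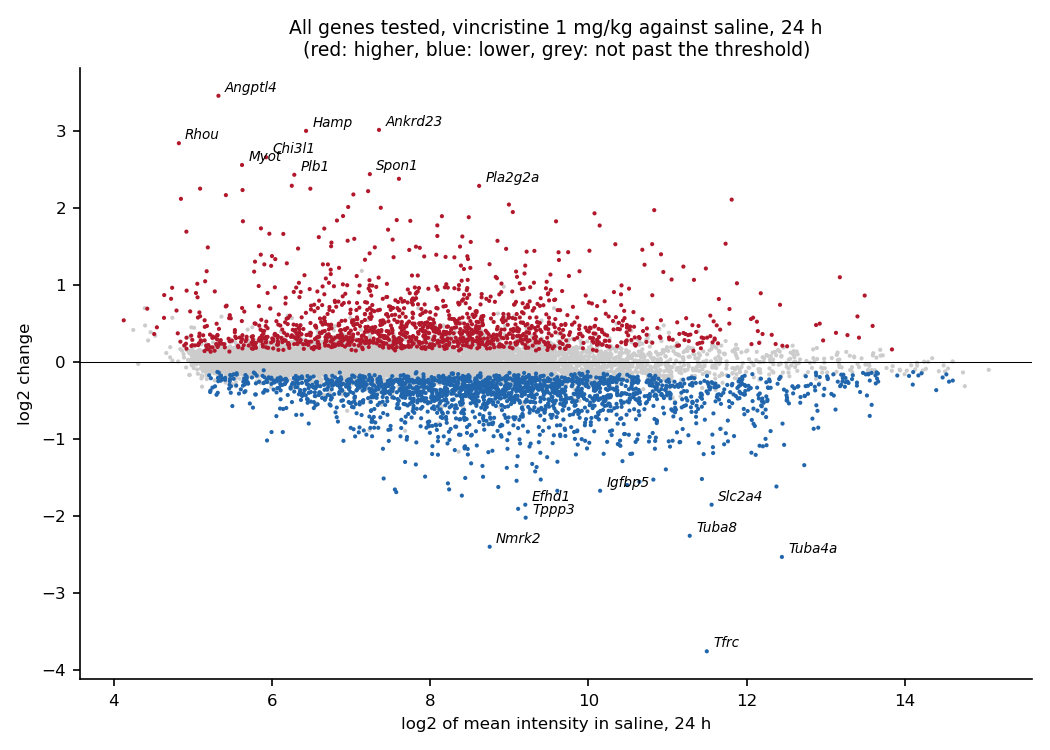
Log2 change at 24 h (vincristine 1 mg/kg against saline, vertical axis) against the log2 of the mean saline intensity (horizontal axis) for the 11319 genes tested; each point is a gene, red for the 1353 higher, blue for the 2080 lower and grey for those not past the threshold. Angptl4 at 3.46 is the largest rise and Tfrc at -3.76 the largest fall.

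The largest rises were spread over metabolism, muscle, iron and inflammation. Angptl4, a secreted inhibitor of lipoprotein lipase, ranged over 35.9 to 46.0 (median 39.2) with saline and 223 to 1177 (median 691) with vincristine, a log2 change of 3.46 ± 0.44 (SE), adjusted p = 1.18e-08. The groups did not overlap, and the lowest vincristine animal was still several times above the highest saline animal. Ankrd23, a titin-associated protein of stretched muscle, went from a median of 160.2 (112 to 234) with saline to 1599 (739 to 2334). Rhou, a small GTPase of the Cdc42 type, went from a median of 28.0 (25.0 to 30.8) with saline to 312 (210.0 to 428). Both rose without overlap, by 3.02 and 2.85. The other leading rises were Hamp, Chi3l1, Myot, Spon1, Plb1, Lcn2, Ptgds, Pla2g2a, Rnd1, Rab30, S100a9 and Fkbp5, between 2.22 and 3.01. Myot encodes the Z-disc protein myotilin, Spon1 a matrix protein, Ptgds a prostaglandin D synthase and Pla2g2a a secreted phospholipase. Spon1 had the smallest SE of these 15 rises, with 121 to 179.6 (median 146) against 673 to 1331 (median 832).

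The largest falls were led by Tfrc, Tuba4a and Nmrk2. Tfrc, the transferrin receptor that brings iron into cells, fell by 3.76 and was the most changed gene of the whole comparison. Nmrk2, a kinase of muscle that makes NAD from nicotinamide riboside, ranged over 228 to 661 (median 432) with saline and 43.6 to 74.4 (median 67.7) with vincristine, a change of -2.40 ± 0.34 (SE), adjusted p = 7.53e-08. Saline animals spread widely in that gene, yet all 6 lay above the vincristine range. Efhd1, a calcium-binding protein of mitochondria, fell from a median of 596 (518 to 669) with saline to 159.6 (126 to 169). The remaining leaders were Kcnk2, Gabrb2, Scn4b, Igfbp5, Fcer2, Reep1, Apln and Lims2, together with Tuba4a, Tuba8, Tppp3 and Slc2a4. Kcnk2 and Scn4b encode a potassium channel and a sodium channel subunit, and Lims2 encodes an adhesion protein of the integrin complex. Among these 8, the log2 changes lay between -1.73 and -1.62, and the groups did not overlap in any of them. Each gene is represented by its brightest probe set, and for 22 of the called genes named here the mean of all their probe sets gave a change smaller by over 1.5 times, which is stated beside each. Of the leading falls these were Kcnk2 (-0.88 over the mean), Gabrb2 (-0.89) and Igfbp5 (-0.97).

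**Figure D2:**
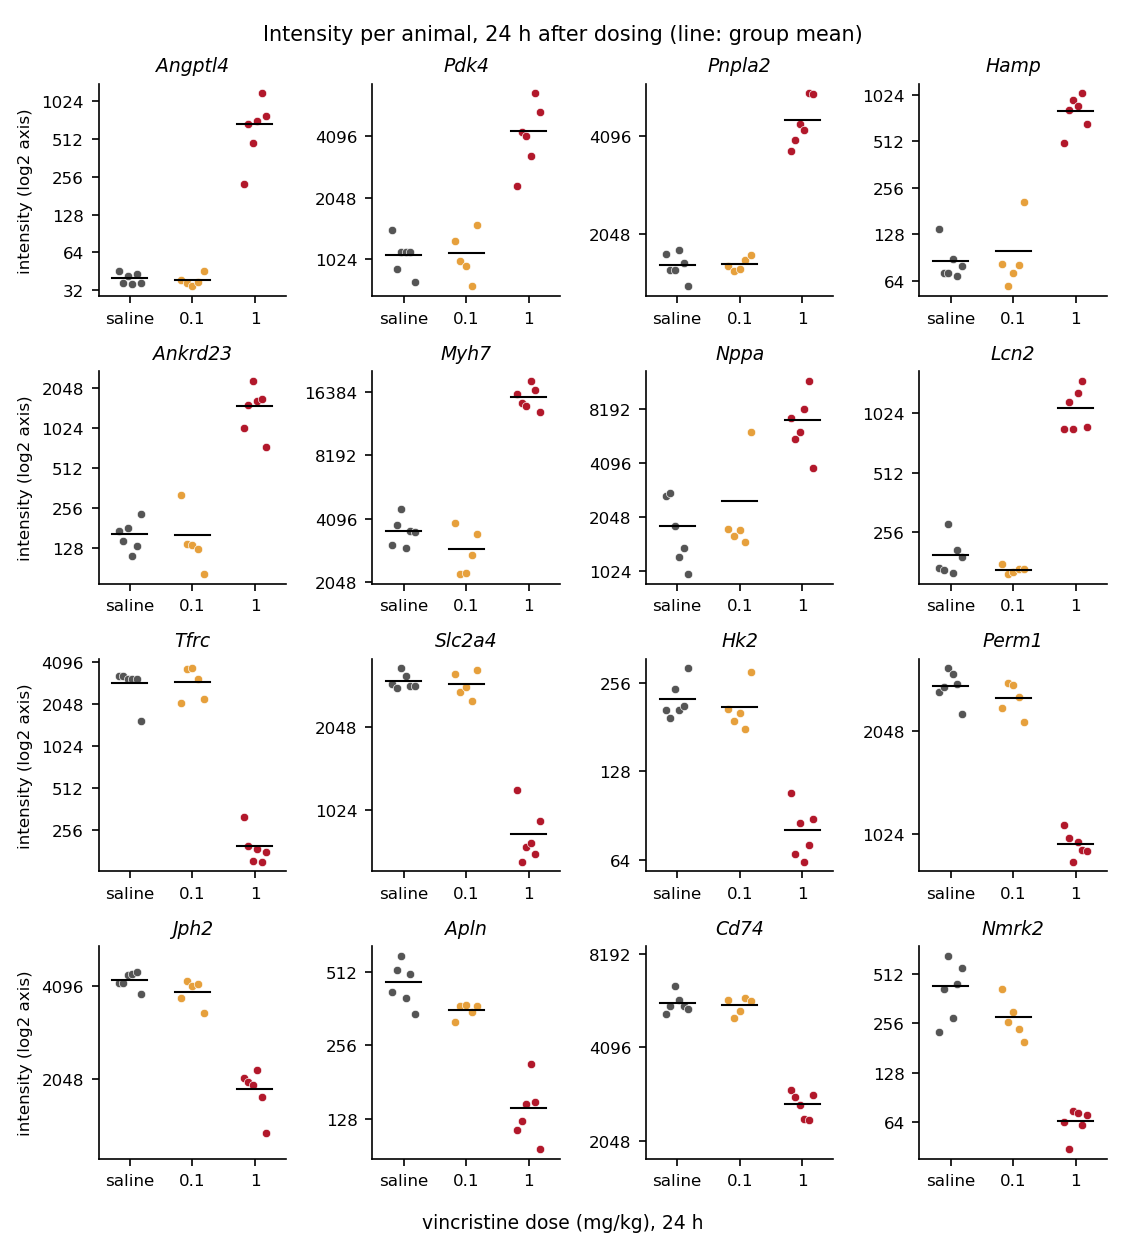
Deposited intensity (log2 axis) of 16 genes in each animal at 24 h: grey for saline (6 animals), orange for vincristine 0.1 mg/kg (5 animals) and red for vincristine 1 mg/kg (6 animals); the line is the group mean. In all 16 genes the animals at 1 mg/kg lie apart from all 6 saline animals.

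The tubulin genes themselves did not move together. Of 9 alpha and beta tubulins tested, 3 fell, 1 rose and 5 did not pass, with a median of -0.30, where 30.3% of all genes passed. Tuba4a, an alpha tubulin that is prominent in striated muscle, had 2958 to 6881 (median 5989.8) with saline and 707 to 1187 (median 957) with vincristine, a change of -2.53 ± 0.49 (SE), adjusted p = 3.69e-05. Tuba8, another alpha tubulin of muscle, had 1492 to 3256 (median 2547) and 415 to 620.0 (median 483), a change of -2.26 ± 0.41 (SE), adjusted p = 1.49e-05. In both genes saline replicate 6 was the lowest saline animal, with Tuba4a at 2958, and still above every vincristine animal. A probe set that carries the symbols of Tuba1a, Tuba1b and Tuba1c together was not assigned to a gene. Tubulin genes are close copies, so a probe set may also take up signal of a relative.

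The beta tubulins were more mixed. Tubb4b, a beta tubulin found in most tissues, had 1876 to 4112 (median 3423) with saline and 1487 to 2227 (median 1647) with vincristine, and its change of -0.86 ± 0.42 (SE), adjusted p = 0.114, did not pass. Saline replicate 6 at 1876 lay inside the vincristine range and the other 5 saline animals above it. In a fit of the 2 groups alone the adjusted p of Tubb4b was 0.000275, with array weights it was 0.0126, and without the 10 arrays nearer another group it was 0.000235, so the call depended on the fit. Tubb6, a broadly expressed beta tubulin, ranged over 195 to 228 (median 203) and 230.0 to 341 (median 309) and rose by 0.49 ± 0.18 (SE), adjusted p = 0.0332. That small rise lost its call in 8 of 12 fits that left out 1 array, and over the mean of the probe sets it was 0.24 (adjusted p = 0.0508). Tubb2a (0.35 ± 0.34 (SE), adjusted p = 0.478), Tubb5 (-0.30 ± 0.27 (SE), adjusted p = 0.435), Tubb2b (0.03 ± 0.07 (SE), adjusted p = 0.743) and Tubb4a (-0.04 ± 0.08 (SE), adjusted p = 0.766) did not pass.

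Tubb1, the beta tubulin of platelets, fell by 0.60 (adjusted p = 0.000526), but its saline values were uneven. Saline replicate 4 had 179 and replicate 5 had 92.1, while the other 4 saline animals lay between 38.4 and 45.3 and the vincristine animals between 32.1 and 39.1. Without saline replicate 4 the change was -0.33 (adjusted p = 0.0109), and in a fit of the 2 groups alone the adjusted p was 0.0665. The platelet chemokine Pf4 had 824 and 508 in the same 2 animals and at most 222 in the other saline animals. Platelet integrin Itga2b had 80.6 and 59.1 there. Of 4 platelet markers tested 0 rose and 1 fell, with a summed intensity of 364 to 463 with vincristine and 411 to 1143 with saline. The part of platelet RNA in the Tubb1 result was not tested.

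Of 21 genes for tubulin folding and tubulin mRNA decay, 2 rose and 2 fell, where 30.3% of all genes passed, with a median of -0.01 (6 rose and 2 fell, with a median of 0.05, after quantile normalization). Ttc5, the factor that marks nascent tubulin for mRNA decay, fell by 0.39 from a median of 206 (187 to 227) with saline to 154 (128 to 172), and the groups did not overlap. The folding cofactors Tbce and Tbcb rose by 0.23 and 0.27, and Arl2, a GTPase that works with them, fell by 0.29. Among 11 genes of the gamma tubulin ring and the centrosome, 1 rose and 3 fell (median -0.01). Tubg1, the gamma tubulin that nucleates microtubules, fell from a median of 454 (323 to 514) with saline to 224 (185 to 238), a change of -0.96 ± 0.21 (SE), adjusted p = 0.000269. Cdk5rap2 and Tubgcp2 fell by 0.42 and 0.20 (Cdk5rap2 at -0.16 over the mean of its probe sets), and the centrosomal scaffold Pcnt rose by 0.37.

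Of 37 motors and microtubule-associated proteins, 4 rose and 10 fell, against 12% and 18.4% of all genes, with a median of -0.06. Tppp3, a protein that bundles and stabilises microtubules, fell from a median of 489 (451 to 1038) with saline to 127 (110.4 to 144), a change of -2.02 ± 0.41 (SE), adjusted p = 7.51e-05. All 6 vincristine animals lay far below the saline range, and saline replicate 6 at 1038 stood above the other saline animals, which reached 616. Stmn1, the tubulin-sequestering protein stathmin, fell by 0.57. Map1b, a microtubule-associated protein best known from growing axons, rose from a median of 565 (518 to 629) with saline to 1167 (895 to 1288), a change of 0.95 (0.58 over the mean of its probe sets). Hdac6, the deacetylase of tubulin, rose by 0.48.

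**Figure D3:**
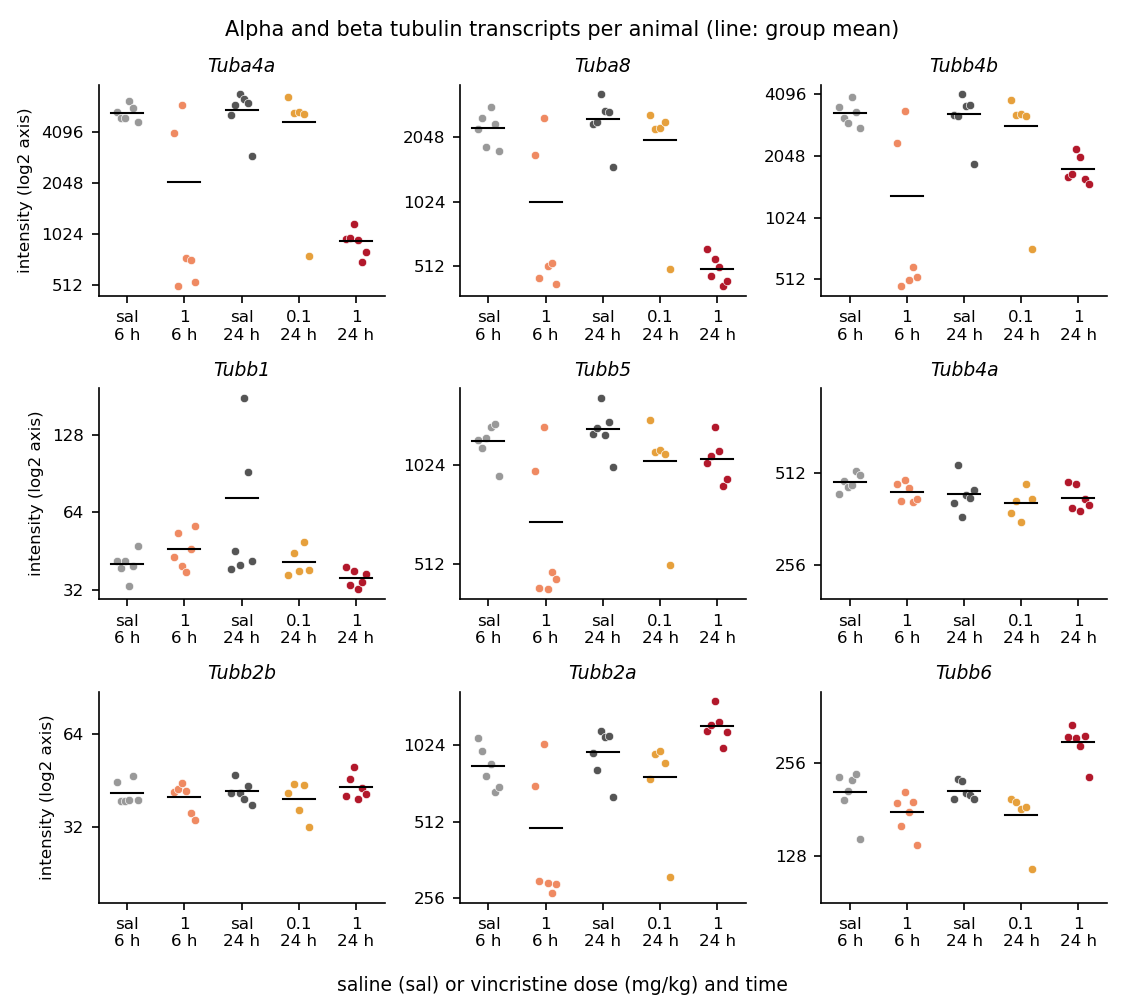
Deposited intensity (log2 axis) of the 9 alpha and beta tubulin genes in each animal: saline and vincristine 1 mg/kg at 6 h, then saline, vincristine 0.1 mg/kg and vincristine 1 mg/kg at 24 h; the line is the group mean. Tuba4a and Tuba8 at 1 mg/kg and 24 h lie below every saline animal, 4 of the 6 animals at 6 h lie low and 2 lie near saline in Tuba4a, and replicate 5 at 0.1 mg/kg is low.

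Genes that heart muscle switches on under load had the highest median of the 38 lists. Of 16 such genes tested, 13 rose and 0 fell, against 12% of all genes that rose, and their median change was 1.06. Myh7, the slow myosin heavy chain that rat ventricle uses before birth and under strain, had 2958 to 4565 (median 3574) with saline and 13115 to 18546 (median 15330.3) with vincristine. Its change was 2.11 ± 0.31 (SE), adjusted p = 2.33e-07, and the lowest vincristine animal was well above the highest saline animal. Nppa, the atrial natriuretic peptide, went from a median of 1608 (991 to 2807) with saline to 6664 (3857 to 11708), a change of 1.98 ± 0.41 (SE), adjusted p = 9.73e-05. Tnfrsf12a, the receptor of the cytokine TWEAK, went from a median of 136 (95.9 to 148) with saline to 623 (474 to 869). Ankrd1, a cardiac ankyrin repeat protein, rose by 0.87. Acta1, Gdf15 and Xirp1 were the 3 members that did not pass.

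Nppa is also a marker of atrial muscle. The other atrial markers did not rise: Myl7 (-1.16 ± 0.75 (SE), adjusted p = 0.252), Sln (-0.89 ± 0.51 (SE), adjusted p = 0.187) and Myl4 (-0.40 ± 0.54 (SE), adjusted p = 0.619) did not pass, and Kcnj3 fell by 0.79 (-0.38 over the mean of its probe sets). Saline replicate 1 had the highest Myl7, at 1348, where the other saline animals reached 220.3. Of 5 atrial markers tested, 1 rose and 1 fell, and their summed intensity, which includes Nppa, was 4336 to 12181 with vincristine and 1489 to 5246 with saline. With saline replicate 1 left out the change of Nppa was 2.11 (adjusted p = 8.98e-05). The part of atrial tissue in the rise of Nppa was not tested.

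Genes of the sarcomere moved in both directions. Of 20 sarcomere genes, 4 rose and 3 fell, with a median of -0.07, against 9 that rose, 2 that fell and a median of 0.08 after quantile normalization. Myoz2, a calcineurin-binding Z-disc protein, rose from a median of 12348 (11031 to 13099) with saline to 17299.7 (15769 to 17689.5), a change of 0.47 ± 0.06 (SE), adjusted p = 3.98e-08. Pdlim5 rose by 0.40. Myom1, which crosslinks myosin at the M band, fell by 0.51, from a median of 4494 (3698 to 4669.7) with saline to 3033 (2758 to 3258). The titin cap gene Tcap rose by 0.35 (adjusted p = 0.046), a call that was lost in 9 of 12 fits without 1 array. Of 3 skeletal muscle markers tested, 0 rose and 2 fell (Myh1 by 0.53 and Ckm by 0.29), with a summed intensity of 16389.7 to 18744 with vincristine and 20741 to 25167 with saline. The part of skeletal muscle in these values was not tested.

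Genes of excitation and calcium handling were mostly lower where they passed. Of 27 tested, 15 fell and 1 rose, against 18.4% of all genes that fell, with a median of -0.34. Jph2, which ties the calcium store to the cell membrane, ranged over 3838 to 4536 (median 4306) with saline and 1367 to 2194 (median 1982) with vincristine, a change of -1.18 ± 0.18 (SE), adjusted p = 2.4e-07. The potassium channel genes Kcnd2, Kcnj3 and Kcnh2 fell by 0.96, 0.79 and 0.77. Kcnh2, the channel of the rapid delayed rectifier current, went from a median of 257 (213 to 284) with saline to 139 (124 to 162). Groups did not overlap in these 4 genes. The single riser was Cacnb2, a calcium channel subunit, at 0.38, named because it was the exception after its value was seen. Of the leading falls outside the list, Kcnk2 went from a median of 343 (244 to 409) with saline to 89.1 (72.2 to 104), and Scn4b from a median of 819.7 (416 to 1044) with saline to 235 (97.3 to 405).

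Genes of fat use moved in both directions. Of 14 targets of PPAR and fasting, 7 rose and 3 fell (median 0.27), and of 30 genes for fatty acid uptake and oxidation, 8 rose and 7 fell (median -0.01), against 9 and 5 with a median of 0.07 after quantile normalization. Pdk4, the kinase that shuts pyruvate out of the citric acid cycle, had 794 to 1427 (median 1113) with saline and 2348 to 6633 (median 4193) with vincristine, a change of 1.93 ± 0.40 (SE), adjusted p = 0.000127. Pdp1, the phosphatase that opposes it, fell by 0.73. Pnpla2, the main triglyceride lipase of the cell, went from a median of 1628 (1413 to 1829) with saline to 4378 (3697 to 5567), a change of 1.46 ± 0.14 (SE), adjusted p = 4.87e-13. Lipe, hormone-sensitive lipase, rose by 0.78 (0.32 over the mean of its probe sets). In contrast Plin5, which coats lipid droplets, and Acsl1, which activates fatty acids, fell by 0.86 and 0.73. Txnip, which restrains glucose uptake, rose from a median of 3243 (1946 to 5019) with saline to 9119.8 (8448 to 11385).

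Glucose genes were mostly lower. Of 29 genes of glycolysis and hypoxia, 17 fell and 3 rose, with a median of -0.28, where 18.4% of all genes fell. Slc2a4, the insulin-dependent glucose transporter GLUT4, had 2857 to 3355 (median 2917) with saline and 663 to 1209 (median 762) with vincristine. The change of -1.85 ± 0.25 (SE), adjusted p = 4.61e-08, left every vincristine animal far below the lowest saline animal. Hk2, which phosphorylates glucose, went from a median of 210.5 (195 to 287) with saline to 78.8 (63.1 to 108), and Pgam2, the muscle phosphoglycerate mutase, from a median of 6640.1 (6047 to 7909.7) with saline to 2622 (2220.5 to 3306). Their changes were -1.33 and -1.34. Bnip3, a mitophagy receptor of the hypoxia response, moved the other way, from a median of 2362 (2174 to 2476) with saline to 5504 (4553 to 7274).

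Mitochondrial genes that passed were all lower in the deposited values, the subunits of oxidative phosphorylation in small steps. Of 37 subunits of oxidative phosphorylation, 18 fell and 0 rose, with a median of -0.14, where 18.4% of all genes fell. After quantile normalization 14 fell and 2 rose, with a median of -0.07. The largest falls were Ndufs3 at -0.45, Ndufc2 at -0.43, Ndufa8 at -0.41 and Sdhd at -0.37. These 4 calls held after quantile normalization. Of 20 regulators of mitochondria, 14 fell and 0 rose, with a median of -0.35 (12 and 1 after quantile normalization). Perm1, a muscle partner of PGC-1 and ERR, ranged over 2295 to 3113 (median 2775) with saline and 848 to 1088 (median 942) with vincristine, a change of -1.52 ± 0.31 (SE), adjusted p = 7.49e-05. Dnm1l, the GTPase of mitochondrial fission, fell by 0.84 and Ppargc1b, a coactivator of the PGC-1 family, by 0.82. The uncoupling protein gene Ucp2 fell by 0.58, with overlapping groups. Of 19 genes of cholesterol synthesis and SREBP, 2 rose (Insig1 at 0.65 and Acaca at 0.39, or 0.23 over the mean of its probe sets) and 4 fell, among them Sc5d by 0.41 and Insig2 by 0.24 (median -0.02). After quantile normalization 3 of the 19 rose and 2 fell. Of 4 adipocyte markers Fabp4 rose by 0.56 and Cfd fell by 0.59, while Adipoq (-0.11 ± 0.08 (SE), adjusted p = 0.312) and Plin1 (0.01 ± 0.06 (SE), adjusted p = 0.949) did not pass. The summed intensity of these 4 was 5684 to 6767 with vincristine and 4015 to 5413 with saline, most of it from Fabp4, and its part in the lipid genes was not tested.

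Iron genes held the largest fall of the comparison and one of its largest rises. Tfrc had 1548 to 3237 (median 3113) with saline and 153 to 318 (median 183) with vincristine, a change of -3.76 ± 0.34 (SE), adjusted p = 1.59e-13. Saline replicate 6 had 1548 and the other 5 saline animals at least 3085, and without it the change was -3.93. Hamp, which encodes the hormone hepcidin that blocks iron export, ranged over 68.4 to 138 (median 75.6) with saline and 497 to 1052 (median 843) with vincristine, a change of 3.01 ± 0.54 (SE), adjusted p = 9.65e-06. Of 17 genes of iron and heme handling, 6 rose and 5 fell, with a median of -0.02. Lcn2, which binds bacterial iron carriers, went from a median of 179.9 (158 to 279.6) with saline to 1022 (854 to 1495). Cp, the plasma ferroxidase ceruloplasmin, rose by 1.58. Alas1, the first enzyme of heme synthesis, fell by 1.09, named after its value was seen.

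Tfrc is also a marker of immature red cells, and other red cell markers were lower in the same animals. Of 6 erythroid markers tested, 4 fell and 0 rose. Slc4a1, the anion exchanger of red cells, had 199 to 275 (median 254) with saline and 64.8 to 95.6 (median 76.4) with vincristine. Alas2, the erythroid heme enzyme, had 387 to 540.3 (median 432) and 122 to 258 (median 204). Hbb, beta globin, fell by 0.56, and Ahsp (-0.19 ± 0.15 (SE), adjusted p = 0.354) and Klf1 (-0.02 ± 0.10 (SE), adjusted p = 0.899) did not pass. The summed erythroid intensity was 6663 to 11051 with vincristine and 13975 to 17379 with saline, without overlap. That sum is mostly Hbb and includes Tfrc, and the part of red cell RNA in the fall of Tfrc was not tested.

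The Hamp promoter is shown because Hamp is the iron gene with the largest rise and its control by STAT3 through sites of the form TTCNNNGAA is textbook knowledge. The sequence is the RefSeq promoter on GRCr8, 250 bases up to the transcription start, at chr1:95300272-95300521 on the minus strand, written 5′ to 3′ with the match in capitals.
Hamp: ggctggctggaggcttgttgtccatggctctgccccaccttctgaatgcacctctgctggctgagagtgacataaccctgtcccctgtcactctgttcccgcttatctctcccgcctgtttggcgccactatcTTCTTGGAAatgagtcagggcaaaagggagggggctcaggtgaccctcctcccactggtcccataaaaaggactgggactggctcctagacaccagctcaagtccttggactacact
The motif TTCNNNGAA, which reads the same on both strands, starts 117 bases before the start. Windows for counting ran from 250 bases before to 50 after the start. The motif was found in 3 of the 14 tested iron genes that have a promoter in the table. These were 2 of the 5 that rose, Hamp among them, and 1 of the 5 that fell. Of all 33469 promoters, 8.87% held it. Genes were counted by any matching promoter, and the share is per promoter. Stat3 itself rose from a median of 779.8 (732 to 909) with saline to 1778 (1520.0 to 4241), named after its value was seen. The match is a description of the letters and no evidence of binding.

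Genes induced by interferon rose in most cases. Of 27 tested, 22 rose and 0 fell, against 12% of all genes that rose, with a median of 0.70. Ifit3 had 36.0 to 50.9 (median 42.5) with saline and 134 to 408 (median 279) with vincristine, a change of 2.17 ± 0.31 (SE), adjusted p = 8.34e-08. Isg15, the ubiquitin-like modifier, went from a median of 265 (227 to 353) with saline to 1167 (447 to 1764), and the antiviral GTPase Mx1 from a median of 37.3 (32.2 to 39.6) with saline to 151 (43.7 to 379). The vincristine animals spread widely in all 3 genes, and in Mx1 the lowest, at 43.7, was just above the highest saline animal, at 39.6. Ifit2, of the same family as Ifit3, rose by 1.37.

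The promoters of Ifit3 and of Irf7, the master factor of the interferon response, are shown because most interferon genes rose and the family has a known element. Irf7 went from a median of 343 (292 to 463) with saline to 700.3 (509 to 1222), and was chosen after its value was seen. Both are RefSeq promoters on GRCr8, 250 bases up to the start, 5′ to 3′, with the match on either strand to the element searched (GAAA, any 2 bases, GAAA) in capitals. Ifit3 lies at chr1:241527076-241527325 on the plus strand and Irf7 at chr1:205800024-205800273 on the minus strand.
Ifit3: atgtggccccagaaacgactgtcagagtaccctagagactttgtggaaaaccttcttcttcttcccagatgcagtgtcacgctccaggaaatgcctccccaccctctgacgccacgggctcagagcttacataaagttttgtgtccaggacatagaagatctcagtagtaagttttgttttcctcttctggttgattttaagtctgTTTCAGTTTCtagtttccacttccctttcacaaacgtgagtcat
Irf7: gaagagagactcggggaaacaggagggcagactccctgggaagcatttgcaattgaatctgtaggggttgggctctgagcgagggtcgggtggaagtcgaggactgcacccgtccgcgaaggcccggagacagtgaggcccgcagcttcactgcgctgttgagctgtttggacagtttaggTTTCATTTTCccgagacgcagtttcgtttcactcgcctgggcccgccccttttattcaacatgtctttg
The match starts 44 bases before the start in Ifit3 and 69 before it in Irf7. Over the 300-base windows, 15 of the 22 tested interferon genes with a promoter in the table held the motif. Among the 18 that rose 12 held it, a share no larger than over all 22, so it was not confined to them. Of all 33469 promoters, 3.92% held it. A gene was counted if any of its promoters matched, while the share is per promoter. The windows of Tap1 and Psmb9 share 44 bases.

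Antigen presentation by MHC class II went the other way. Of 11 genes tested, 6 fell and 2 rose, against 18.4% of all genes that fell. Their median of -0.88 was the lowest of the 38 lists. Cd74, the invariant chain, had 5246 to 6467 (median 5555) with saline and 2397 to 2989 (median 2756) with vincristine, a change of -1.07 ± 0.14 (SE), adjusted p = 2.9e-08. RT1-Da, an alpha chain of the rat class II molecules, had 828 to 1145 (median 879.7) and 301 to 511 (median 393). The RT1-Bb and RT1-Ba chains fell by 1.58 and 0.93, RT1-Bb with overlapping groups. Over the mean of their probe sets these 2 changes were -0.67 and -0.37. These genes are near copies of each other, so probe sets may share signal. Ciita, the factor that switches the class II genes on, did not pass (0.02 ± 0.07 (SE), adjusted p = 0.887).

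Markers of macrophages did not fall with the class II genes. Of 15 tested, 8 rose and 1 fell, and the 1 that fell was Cd74. Cd14, the co-receptor for endotoxin, had 89.4 to 128 (median 98.4) with saline and 279.6 to 426 (median 397) with vincristine, a change of 1.74. Lyve1, Cd163, Lyz2 and Mrc1 rose by 0.95, 0.90, 0.88 and 0.82. The summed macrophage intensity, which includes bright Cd74, was 7561 to 9691 with vincristine and 9017 to 10259 with saline. Of 7 T and NK cell markers, 0 rose and 1 (Cd4) fell, and of 3 B cell markers 0 passed in either direction. The summed T and NK cell intensity was 387 to 434 with vincristine and 411 to 470.4 with saline, and that of B cell markers 234 to 283 and 237 to 274. The part of immune cells in the class II and interferon results was not tested.

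Acute phase and inflammatory genes that passed mostly rose. Of 24 acute phase and NF-kappaB genes, 11 rose and 0 fell, against 12% of all genes that rose, with a median of 0.27. Cebpb and Cebpd, transcription factors of the acute phase, went from a median of 202 (157 to 313) with saline to 829 (619.6 to 997) and from a median of 176 (162 to 195) with saline to 647 (449 to 813). The change of Cebpd was 1.72, and 1.15 over the mean of its probe sets. Timp1, an inhibitor of metalloproteinases, rose by 1.50. Of 26 chemokines and receptors, 7 rose and 2 fell (median 0.15), where 30.3% of all genes passed. The split was 9 and 1 after quantile normalization. Ccl2, which draws monocytes, went from a median of 62.5 (49.4 to 80.4) with saline to 207 (204 to 374), and Ccl7 and Cxcl10 rose by 0.84 and 0.92. Cxcr4, the receptor of Cxcl12, fell by 0.97.

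Lcn2 and S100a9 are also neutrophil genes. S100a9, a subunit of calprotectin, had 38.5 to 67.1 (median 47.4) with saline and 199 to 511 (median 281) with vincristine, a change of 2.24 ± 0.53 (SE), adjusted p = 0.000693. Of 6 neutrophil markers tested, 4 rose and 0 fell, S100a8 by 0.82 and Il1r2 by 0.70 besides those. Camp (0.02 ± 0.07 (SE), adjusted p = 0.874) and Itgam (0.19 ± 0.08 (SE), adjusted p = 0.0809) did not pass, and the granule genes Mpo, Elane, Ltf and Ngp were not among the genes tested. The summed intensity of the 6 was 1266 to 2282 with vincristine and 362 to 481 with saline, most of it Lcn2, and the part of neutrophils in these results was not tested.

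**Figure D4:**
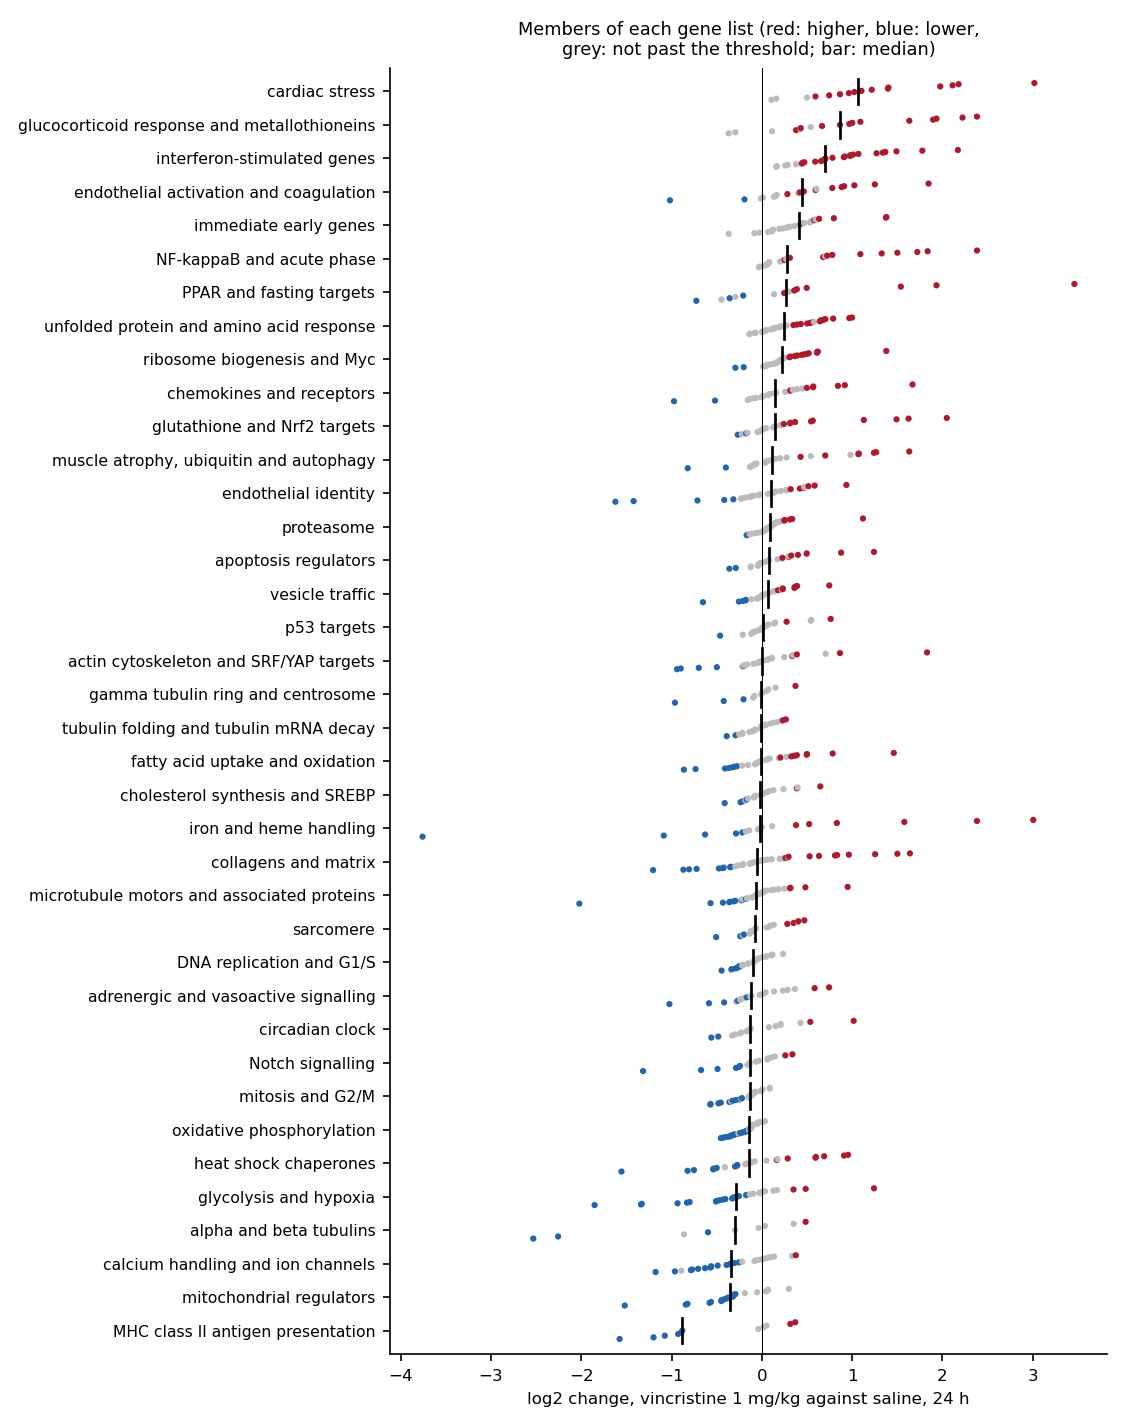
Log2 change (vincristine 1 mg/kg against saline, 24 h) of the tested members of 38 gene lists, ordered by the list's median (black bar); each point is a gene, red where it rose, blue where it fell and grey where it did not pass. Cardiac stress genes have the highest median, 1.06, and MHC class II genes the lowest, -0.88.

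The endothelium showed rises and falls side by side. Of 20 genes of endothelial activation and coagulation, 10 rose and 2 fell, against 12% and 18.4% of all genes, with a median of 0.44. These counts were 12 and 1 after quantile normalization. Adamts1, a matrix protease, went from a median of 190.5 (159 to 215) with saline to 753 (532 to 1029), and Procr, the protein C receptor, from a median of 64.3 (55.2 to 73.7) with saline to 171 (132 to 229). Plat, tissue plasminogen activator, rose by 1.02, while Esm1, a gene of sprouting vessels, fell by 1.02 from a median of 56.6 (44.7 to 96.3) with saline to 21.4 (19.1 to 23.1). Of 29 genes of endothelial identity, 6 rose and 5 fell (median 0.10), where 30.3% of all genes passed. After quantile normalization 10 rose and 5 fell. Apln, the ligand apelin, had 344 to 595 (median 464) with saline and 96.3 to 215 (median 137) with vincristine, a change of -1.62 ± 0.17 (SE), adjusted p = 4.24e-11. Its receptor Aplnr fell too, from a median of 628 (480.1 to 817) with saline to 221 (148 to 352). Cldn5, the tight junction protein, rose by 0.94, and Sox7 fell by 0.71. Of 9 endothelial markers, 5 rose and 2 fell, and their summed intensity was 8005 to 9259 with vincristine and 6705 to 8650 with saline.

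Of 17 genes of Notch signalling, 6 fell and 2 rose, with a median of -0.13, where 18.4% of all genes fell. After quantile normalization 5 fell and 3 rose. Hey1, a Notch target, fell by 1.32 from a median of 368 (310.3 to 401) with saline to 139 (96.1 to 184), and Nrarp and Hey2, further targets, fell by 0.67 and 0.49 (Nrarp at -0.43 over the mean of its probe sets). Mfng, a glycosyltransferase of Notch, rose by 0.34. Among 41 genes of collagens and matrix, 10 rose and 9 fell (median -0.05), against 14 and 8 with a median of 0.05 after quantile normalization. Tinagl1 and Mmp14, a matricellular protein and a membrane protease, rose from a median of 261 (238 to 358) with saline to 879.9 (623 to 1282) and from a median of 595 (417 to 685) with saline to 1312 (1066 to 2274). Col15a1, a basement membrane collagen, fell by 1.21. Of 10 fibroblast markers, 2 rose and 3 fell (2 and 2 after quantile normalization), with a summed intensity of 26521 to 33891 with vincristine and 33196 to 41568 with saline. Of 10 smooth muscle and pericyte markers, 1 rose and 1 fell (5399 to 7075 against 6032 to 7303). The part of cell numbers in these results was not tested.

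Of 26 genes of the actin cytoskeleton and of SRF and YAP targets, 4 rose and 5 fell, with a median of 0.005 (5 and 5, with a median of 0.06, after quantile normalization). Ccn2, the matricellular protein also called CTGF, had 603 to 916 (median 769.8) with saline and 1869 to 4187 (median 2721) with vincristine, a change of 1.83 ± 0.40 (SE), adjusted p = 0.00027. Myl9, a light chain of non-sarcomeric myosin, and Pdlim7 fell by 0.94 and 0.90 (Pdlim7 at -0.29 over the mean of its probe sets). Rnd1, a GTPase that loosens actin fibres, was among the largest rises, from a median of 32.1 (29.9 to 42.8) with saline to 219.7 (138 to 344). These genes did not share a direction.

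Glucocorticoid-responsive genes and metallothioneins had the second highest median. Of 17 tested, 12 rose and 0 fell, against 12% of all genes that rose, with a median of 0.87. Fkbp5, a chaperone partner of the receptor, went from a median of 127 (103 to 247) with saline to 744 (595 to 906), a change of 2.22 ± 0.34 (SE), adjusted p = 4.32e-07. Sult1a1, a sulfotransferase, went from a median of 232 (186 to 477) with saline to 1106 (889 to 1162), and both groups of each gene were apart. Lcn2 and Pdk4, already given, are members of this list as well. Dusp1, Klf15, Mt1, Per1 and Cdkn1a did not pass, while the metallothionein gene Mt2A rose by 1.63. Among 26 genes of glutathione and Nrf2 targets, 10 rose and 2 fell (median 0.14). Mgst1, a microsomal glutathione transferase, went from a median of 521 (442 to 561) with saline to 2109.9 (1767 to 2796), Cdo1, which oxidises cysteine, rose by 1.63, Hmox1, which breaks down heme, by 1.49 and Srxn1, which repairs peroxiredoxins, by 1.13 (0.56 over the mean of its probe sets).

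Chaperone genes moved in both directions. Of 24 heat shock genes, 7 rose and 9 fell, with a median of -0.15, against 9 that rose, 8 that fell and a median of -0.11 after quantile normalization. Fkbp4, the Hsp90 partner that moves steroid receptors along microtubules, fell from a median of 1576 (1461 to 1830.0) with saline to 539 (439 to 609), a change of -1.56 ± 0.18 (SE), adjusted p = 3.52e-10. Hsph1, a nucleotide exchange factor of Hsp70, fell from a median of 813 (561 to 955) with saline to 421 (405 to 456). The Hsp40 genes Dnajb5 and Dnajb4 rose by 0.95 and 0.91. Hspe1 and Hspd1, the mitochondrial chaperonins, fell by 0.54 and 0.50, named after their values were seen.

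Promoters of Hspe1 and Hsph1 are shown because both fell and both carry a heat shock element (GAA, any 2 bases, TTC, any 2 bases, GAA). They are RefSeq promoters on GRCr8, 250 bases up to the start, 5′ to 3′, both on the plus strand, with matches on either strand in capitals. Hspe1 lies at chr9:64084077-64084326 and Hsph1 at chr12:10427118-10427367.
Hspe1: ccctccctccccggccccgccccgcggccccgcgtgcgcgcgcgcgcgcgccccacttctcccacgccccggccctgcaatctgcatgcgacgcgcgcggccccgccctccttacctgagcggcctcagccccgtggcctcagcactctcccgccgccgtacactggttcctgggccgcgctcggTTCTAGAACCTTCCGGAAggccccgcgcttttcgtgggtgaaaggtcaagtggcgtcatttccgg
Hsph1: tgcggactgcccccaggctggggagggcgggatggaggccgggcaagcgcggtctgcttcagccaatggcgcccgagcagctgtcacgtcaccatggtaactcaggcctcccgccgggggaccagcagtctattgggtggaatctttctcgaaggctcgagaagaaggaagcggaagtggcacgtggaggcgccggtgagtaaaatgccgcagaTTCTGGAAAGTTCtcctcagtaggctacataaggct
Hspe1 holds 2 overlapping matches that start 65 and 60 bases before the start, and Hsph1 holds 1 at 36 bases. The windows of Hspe1 and Hspd1 share 211 bases, so the 2 genes are not separate observations of the motif. In the 300-base windows, 4 of the 20 heat shock genes with a promoter in the table held it: 3 of the 9 that fell and 0 of the 6 that rose, against 0.798% of all promoters. Here too genes were counted by any matching promoter, and the share is per promoter.

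Further stress and growth groups had more rises than falls, where 12% of all genes rose and 18.4% fell. Of 32 genes of the unfolded protein and amino acid response, 14 rose and 0 fell, with a median of 0.24. Nupr1, a stress cofactor of chromatin, and Ddit4, an inhibitor of mTORC1, rose by 1.00 and 0.97, and the amino acid transporter subunit Slc3a2 by 0.79. Of 31 genes of ribosome biogenesis, 12 rose and 2 fell (median 0.23), against 14 and 1 after quantile normalization. Myc, which drives that programme, went from a median of 62.9 (58.8 to 73.1) with saline to 205 (106 to 264), a change of 1.38 ± 0.36 (SE), adjusted p = 0.00223. Of 33 proteasome genes, 5 rose and 2 fell (median 0.09), but 18 rose and 0 fell (median 0.17) after quantile normalization, so the count for this group rests on the scaling. Psmd8 rose by 1.12, apart from the other 4 risers, which reached 0.34, the value of Psmd11 (0.16 over the mean of its probe sets). Of 26 genes of muscle atrophy and autophagy, 7 rose and 2 fell (median 0.11), where 30.3% of all genes passed. The metallothionein gene Mt2A (1.63), its largest rise, and Bnip3 (1.24) are counted among the 7. Trim54, a ubiquitin ligase of the sarcomere, and Sqstm1, an autophagy receptor, rose by 1.27 and 1.07 (Sqstm1 at 0.49 over the mean of its probe sets), while Fbxo32 (-0.10 ± 0.08 (SE), adjusted p = 0.371) and Trim63 (-0.13 ± 0.17 (SE), adjusted p = 0.603), the classical atrophy ligases, did not pass.

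Of 27 genes of mitosis, 9 fell and 0 rose (median -0.14), and of 24 genes of DNA replication, 6 fell and 0 rose (median -0.10), where 18.4% of all genes fell. Racgap1, a regulator of cytokinesis, had 38.7 to 52.8 (median 44.9) with saline and 21.4 to 30.0 (median 24.1) with vincristine, a change of -0.57 ± 0.11 (SE), adjusted p = 5.96e-05. Over the mean of its probe sets the change was -0.35, and with a pseudocount of 64 in place of 16 it was -0.29. Cdk1 and Prc1 fell by 0.48 and 0.46 with overlapping groups, and Ung and Mcm5, of DNA repair and replication, by 0.45 and 0.34. The mitotic list holds 46 genes, of which 41 had a probe set and 27 passed the filter on dim probe sets.

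At the lower dose, 0.1 mg/kg, no gene passed at 24 h. Of 11319 genes 0 (0%) passed in limma, 316 had an unadjusted p under 0.05, and array weights gave 53. The differences from saline of Angptl4, Tfrc, Slc2a4 and Myh7 were -0.04, 0.04, -0.04 and -0.32 at 0.1 mg/kg. Replicate 5 of that group stood apart, with Tuba4a at 760.1 against at least 5284 in the other 4 animals, Tubb4b at 716 against at least 3216, and Myl7 at 2028 against at most 81.3. Without replicate 5 the number of genes was still 0. A p above the threshold does not show that the low dose had no effect.

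Tested against each other, 1 mg/kg and 0.1 mg/kg at 24 h differed in 2702 genes (23.9%), 1388 higher (12.3%) and 1314 lower (11.6%) at 1 mg/kg, and in 2377 without replicate 5 of the lower dose. The largest differences were rises of Angptl4 (3.50 ± 0.47 (SE), adjusted p = 4.64e-08), Ankrd23 (3.14), Hamp (2.91), Rhou (2.83) and Lcn2 (2.58), and falls of Tfrc (-3.79 ± 0.36 (SE), adjusted p = 8.96e-13), Tppp3 (-2.21), Tuba4a (-2.02), Nmrk2 (-1.86) and Slc2a4 (-1.81). By group, 14 of 16 cardiac stress genes and 23 of 27 interferon genes were higher at 1 mg/kg, and 13 of 27 calcium and ion channel genes and 6 of 11 class II genes were lower. Other groups had fewer calls than against saline. Of 17 glucocorticoid-responsive genes and metallothioneins 7 were higher, beside 12 against saline, and of 27 mitotic genes 2 were lower, beside 9. Without replicate 5 of the lower dose the 10 genes with the largest differences still passed, with Tppp3 at -1.66 and Tuba4a at -2.60. This comparison shares its 6 vincristine animals with the one against saline.

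The change at 24 h was also tested against the change at 6 h, each relative to the saline animals of its own time. At 6 h, 373 genes (3.3%) passed, 231 higher (2.04%) and 142 lower (1.25%). The 2 changes differed in 1385 genes (12.2%), 399 (3.53%) more positive and 986 (8.71%) more negative at 24 h, and in 1181 without replicate 3 of the 6 h group. That balance turned with the scaling: 28.8% of these genes were more positive at 24 h in the deposited values and 54% after quantile normalization. Tfrc differed most: its change was 0.31 at 6 h and -3.76 at 24 h, a difference of -4.07 ± 0.48 (SE), adjusted p = 2.1e-08. Angptl4 (difference 2.78), Hamp (2.31), Mgst1 (2.16), Plb1 (2.16) and Chi3l1 (2.09) were more positive at 24 h. Slc2a4 (-1.88), Nmrk2 (-1.91), Apln (-1.80) and Hs3st5, a heparan sulfate sulfotransferase (-1.96), were more negative. Among groups, 13 of 29 glycolysis genes and 10 of 27 calcium and ion channel genes were more negative at 24 h (10 and 7 after quantile normalization). For oxidative phosphorylation it was 19 of 37 genes, but 6 after quantile normalization. Without replicate 3 of the 6 h group the difference of Hamp was 2.06 and no longer passed (adjusted p = 0.0729), while the other 9 genes named here still passed. Of 15 macrophage markers, 9 were more positive at 24 h with either scaling, and at 6 h 1 had risen and 6 had fallen (median -0.41).

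Other genes did not show a difference between the times in the deposited values. Rhou, Rnd1, S100a9, Ccn2 and Adamts1 had changes of 1.69, 1.77, 2.11, 1.85 and 1.84 at 6 h and passed at both times. Their differences between the times did not pass, the largest being Rhou at 1.16 ± 0.61 (SE), adjusted p = 0.217. Tuba4a changed by -2.09 ± 0.49 (SE), adjusted p = 0.0124, at 6 h, where replicates 1 and 3 had 4038 and 5966 and the other 4 animals 508 to 739. Its difference between the times was -0.45 ± 0.69 (SE), adjusted p = 0.745. Without replicate 3 the change at 6 h was -2.54 and the difference between the times 0.003 (adjusted p = 0.998), so its sign turned. Tubb4b and Tubb5 passed at 6 h (-1.82 and -0.94) and not at 24 h, but their differences of 0.95 ± 0.59 (SE), adjusted p = 0.316, and 0.65 ± 0.38 (SE), adjusted p = 0.28, did not pass, also without replicate 3 (1.33 and 0.87). The result for the tubulins depended on the scaling. Of the 9 alpha and beta tubulins, 0 were more positive and 1 more negative at 24 h in the deposited values. After quantile normalization 2 were more positive and 1 more negative.

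**Figure D5:**
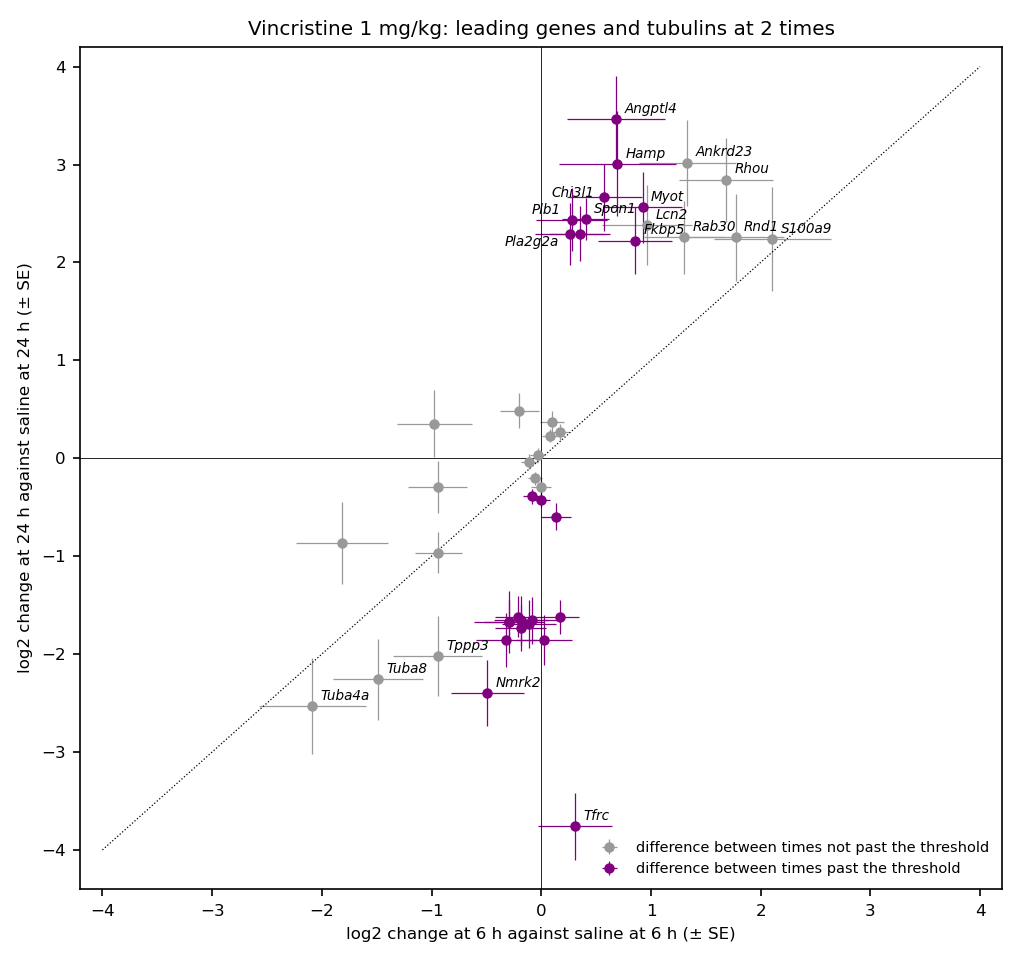
Log2 change with vincristine 1 mg/kg at 24 h (vertical) against that at 6 h (horizontal), each against saline of its own time, with SE bars, for the leading genes and the tubulin, gamma tubulin and tubulin folding genes named; purple marks genes whose 2 changes differ past the threshold and the dotted line marks equal changes. Tfrc lies at 0.31 and -3.76, and Tuba4a lies near the dotted line at -2.09 and -2.53.

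The higher doses of the other 2 compounds at 24 h were measured against the same 6 saline animals, and doses in mg/kg differ, so values are set side by side without a comparison. Vinblastine at 3 mg/kg (6 animals) and colchicine at 2 mg/kg (6 animals) gave changes of Tfrc of -2.66 and -2.98, beside -3.76 with vincristine. For Angptl4 they were 1.18 (adjusted p = 0.0787) and 3.68, beside 3.46. For Myh7 they were 1.99 and 2.05, beside 2.11. For Tuba4a they were -1.04 (adjusted p = 0.185) and -3.09, beside -2.53. For Isg15 they were 1.89 and 1.07, beside 1.78. Without colchicine replicate 1, the array named above as nearer another group, the changes with colchicine were -3.62 for Tfrc, 4.25 for Angptl4, 2.39 for Myh7, -3.16 for Tuba4a and 1.32 for Isg15, a choice made after seeing the data.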

How the data were processed

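RNA of 82 rat hearts was hybridised to Affymetrix arrays. Per the labels' protocols, total RNA was isolated with an RNeasy kit and biotinylated cRNA was made with the 3' IVT express kit. The deposited intensity values, on a linear scale, had been normalized by the authors with a method that is not given in the sources used here. Of 31099 probe sets, 57 were controls, 20826 had 1 gene symbol in the platform annotation, 436 had several and 9780 had none, and 20758 were updated by gene ID through RefSeq. Each of 14217 genes was represented by its probe set with the highest mean. Genes above the 40th percentile of the array on at least 5 arrays were tested (11319 genes).

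A linear model of log2(intensity + 16) with the 14 group means of all 82 arrays was fitted in limma 3.58.1 (R 4.3.3), with moderated statistics on 68 residual degrees of freedom and Benjamini-Hochberg adjustment. The script was tested on simulated data. With 6 animals a group, the number of arrays limits the precision. Replicate numbers of the titles did not pair animals: correlations of same-numbered arrays of the 2 groups lay between -0.0903 and 0.0709. The genes named were the 15 largest rises and falls past the threshold, every tested tubulin, up to 4 members past the threshold for each of 38 lists and, for dose and time, the 5 largest in each direction. Others are named as markers, as members that did not pass or as chosen after their values were seen. Members, lists and motifs were chosen with earlier results of these data known. Alternatives were other pseudocounts, filters, scaling, probe set choice, fits, array weights, a replicate block and each array left out, with 1 colchicine array left out as a choice made after seeing the data.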

Additional observations from a re-analysis of the deposited data

Results flagged for a closer look

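In 18 of 334 gene-and-group combinations (5.39%) 1 animal lay far from the other 5 of its group by Dixon's criterion, which chance alone meets in about 1 in 20 groups. Saline replicate 6 had 6 of them: Acsl1 at 5611 (others at least 7200.0), Cxcl10 at 51.4 (others at most 38.4), Per2 at 309 (at most 181), RT1-Da at 1145 (at most 911), Tfrc at 1548 (at least 3085) and Tppp3 at 1038 (at most 616). Vincristine replicate 5 had 4: Ccl2 at 374 (others at most 227), Cp at 598 (at most 403), Mfng at 279.6 (at most 217) and Ppargc1b at 254 (at most 144). In the remaining 8, the intensity was 96.6 for Ace in saline replicate 5, 507 for Cldn5 and 2005 for Myl9 in saline replicate 3, 138 for Hamp in saline replicate 1 and 358 for Tinagl1 in saline replicate 4. It was 34.6 for Fcer2 in vincristine replicate 6, 554 for Rab5a in vincristine replicate 3 and 318 for Tfrc in vincristine replicate 1.

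The change with vincristine at 24 h differed from that at 6 h, by a test of the difference, in 1385 genes. On the log2 scale the differences (24 h minus 6 h) were 2.78 for Angptl4, 2.31 for Hamp, 2.16 for Mgst1, 2.16 for Plb1 and 2.09 for Chi3l1. That of Hamp was 2.06 and no longer past the threshold without replicate 3 of the 6 h group (adjusted p = 0.0729). They were -4.07 for Tfrc, -1.96 for Hs3st5, -1.91 for Nmrk2, -1.88 for Slc2a4 and -1.80 for Apln.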

How the results depend on the processing

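For vincristine 1 mg/kg against saline, the number of genes past the threshold was 3433, between 3288 and 4956 over 10 alternatives, and 2977 to 3332 without each replicate in turn. Without each replicate it was 0 to 0 for the lower dose, 2250 to 2561 between the doses, 1043 to 1649 between the times and 816 to 896 for probe sets with no or several symbols. With array weights these 4 counts were 53, 4579, 2155 and 1434, and the cause was not tested. With the replicate number as a block, the counts were 3514 for the main comparison, 0 for the lower dose, 2653 between doses, 1434 between times and 937 for the unassigned probe sets, and the calls of the 167 named genes did not change. Without the 10 arrays nearer another group they were 3943, 0, 3085 and 1788. Tubb4a, which did not pass in any of these fits, turned from -0.04 to 0.0035 with quantile normalization, to 0.0375 with the mean of probe sets and to 0.0247 without saline replicate 2, with -0.0837 as the lowest value when 1 array was left out. Calls were lost for Zfp36 (adjusted p = 0.052 with a pseudocount of 64, 0.0613 with no filter and 0.0501 with the mean of probe sets), Tcap (0.0566 with no filter), Insig2 (0.0505) and Mcm7 (0.0506) with quantile normalization, and Tubb6 (0.0508) and Rab5a (0.229) with the mean of probe sets. In a fit of the 2 groups alone Tubb2a (0.0406) and Tubb5 (0.0392) passed. In 2004 fits of a named gene without 1 array, 66 lost the call. The call of Rab5a was lost in most such fits, and those of Insig2 and Nupr1 in some. The mean of probe sets could not be applied to probe sets without a gene. With a pseudocount of 64 the dim genes Tubb1 (-0.37), Cxcl10 (0.56), Ccl7 (0.49), Esm1 (-0.54), Racgap1 (-0.29) and Cdk1 (-0.31) changed less by over 1.5 times and still passed, and arrays give no counting error.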

Other observations

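Several gene groups lay outside the main themes. Of 17 circadian clock genes, 2 rose and 2 fell, with a median of -0.13 (3 and 2 after quantile normalization): Per2 by 1.02 and Cry2 by 0.54 upward (0.57 and 0.35 over the mean of their probe sets), and Nr1d1 by 0.56 and Cry1 by 0.48 downward. All 4 had overlapping groups. Of 21 genes of adrenergic and vasoactive signalling, 2 rose and 5 fell (median -0.12), against 4 and 4 after quantile normalization. Adra1d and Adra1b, alpha-1 adrenoceptors, fell by 1.02 and 0.59, and Ace, the angiotensin-converting enzyme, rose from a median of 120.4 (96.6 to 129) with saline to 199 (192 to 237). Ramp2, a partner of the adrenomedullin receptor, rose by 0.58.

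Of 24 apoptosis regulators, 7 rose and 2 fell (median 0.07), where 30.3% of all genes passed, with the survival gene Bcl2l1 at 0.88 (0.46 over the mean of its probe sets), Fadd at 0.50 and Cflar at 0.40 beside Bnip3. Of 19 p53 targets, 2 rose (Gadd45a at 0.76 and Xpc at 0.27) and 1 fell (Phlda3 at -0.46), with a median of 0.01. Cdkn1a (0.54 ± 0.26 (SE), adjusted p = 0.115) and Mdm2 (adjusted p = 0.981), the best known p53 targets, did not pass. Of 29 immediate early genes, 6 rose and 0 fell (median 0.41), with 11 risers after quantile normalization, led by Myc and Klf10. Klf10 went from a median of 228 (138 to 368) with saline to 661 (438 to 866). Junb and Zfp36 rose by 0.80 and 0.63, the second a call lost in 10 of 12 fits without 1 array, while Fos (0.23 ± 0.15 (SE), adjusted p = 0.242) and Egr1 (0.54 ± 0.46 (SE), adjusted p = 0.401) did not pass. Of 29 genes of vesicle traffic, 8 rose and 5 fell (median 0.07; 10 and 2 after quantile normalization), with Vamp5 at 0.75 (0.29 over the mean of its probe sets) and Rab1b at -0.65 as the largest in each direction. Rab30, a Golgi GTPase outside that list, went from a median of 91.3 (74.3 to 101) with saline to 498 (293 to 675). Of 6 nerve and Schwann cell markers and 2 mesothelial markers, 0 passed in either direction. The summed intensity of the nerve markers was 381 to 420.5 with vincristine and 357 to 414 with saline, and that of the mesothelial markers 215 to 302 and 182 to 252.

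Probe sets with several symbols or none were fitted apart. Of 4961 tested, 921 (18.6%) passed, 304 higher and 617 lower with vincristine.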
